A study of Mus musculus with 2 samples.

Results

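The genes of 6 G protein-coupled receptors that control lipolysis in adipocytes were followed: Adrb1 and Adrb3 (beta-1 and beta-3 adrenergic receptors), Adra2a (alpha-2A), Adora1 (adenosine A1), Ptger3 (EP3) and Sucnr1 (succinate receptor). They were chosen by name, as the non-control probes whose gene name in the array files equals one of these symbols, which gave 13 of 41174 probes and 6 of 27962 gene names. Adipocytes release stored fat under the control of hormone receptors that act through G proteins. The beta-adrenergic receptors, which bind the catecholamines adrenaline and noradrenaline, couple to the stimulatory protein Gs; adenylyl cyclase then makes cyclic AMP, protein kinase A is switched on, and lipases and the droplet coat protein perilipin are phosphorylated. The alpha-2A adrenergic receptor, the adenosine A1 receptor, the prostaglandin E receptor EP3 and the succinate receptor couple to the inhibitory protein Gi and hold cyclic AMP down.

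The study compared RNA of adipocyte-derived microvesicles (ADMs) with RNA of their donor adipocytes. These were made from 3T3-L1 (CL-173), an established mouse preadipocyte line, with no genetic change or other treatment named in the labels, by an inducing mix of 0.5 mM 3-isobutyl-1-methylxanthine (a phosphodiesterase inhibitor), 0.25 µM dexamethasone and 10 µg/ml insulin in medium with 10% serum. Vesicles, collected by ultracentrifugation of conditioned medium, and cells were both harvested on day 11 after induction. Each of 2 biological replicates was 1 two-colour Agilent array carrying 1 vesicle RNA and 1 cell RNA: the vesicle RNA was in Cy5 in replicate 1 and in Cy3 in replicate 2. The labels call the replicates biological without saying whether they came from separate cultures. The p-values rest only on differences between these arrays, with the variance of each probe drawn towards that of all tested probes. The number of arrays limits every value. Every direction rests on the dye labels, and a swap of the RNAs on the pair of arrays would reverse it.

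Vesicle RNA gave more signal than cell RNA on both arrays. The median net signal (spot minus local background, in scanner units) of the probes tested was 545 against 17.3 in replicate 1 and 208 against 36.5 in replicate 2, so that the median net ratio was 38.8 and 7.64. A larger net signal in vesicle RNA is therefore the rule on these arrays. As the RNAs are bulk, fewer cells or vesicles that carry a transcript and less of it in each cannot be told apart. The log2 ratios below were taken after background correction and loess, which sets each probe against probes of similar brightness, and are positive where vesicle RNA was higher. Of 10 adipocyte markers, vesicle RNA showed 10 well above background on both arrays and cell RNA 9, the exception being Lep. Of 6 preadipocyte or fibroblast markers these counts were 6 and 3, of 4 brown or beige adipocyte markers 1 and 1, of 5 macrophage markers 1 (Cd68) and 0, and of 4 endothelial markers 0 and 0; the summed net signal of the macrophage markers was 115 and 53.0 in vesicle RNA and 38.9 and 46.2 in cell RNA. What part the other cell types have in the receptor values was not tested.

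Counted by any probe, 5 of the 6 receptor genes were seen in vesicle RNA on both arrays and 2 in cell RNA. Adrb1 was seen by a different probe in each RNA. The share of all genes seen by any probe was not computed, so the shares below are of probes. By the scanner's flag for a spot well above background, 8 of the 13 probes were seen in vesicle RNA on both arrays (45.8% of all probes were) and 2 in cell RNA (23.8%). The flag was raised on both arrays in vesicle RNA and on neither in cell RNA for 5 probes, those of Sucnr1 and Adrb3, 1 of Adrb1 and 2 of Adra2a, against 13.0% of all probes. It was raised the other way round for 1 probe, of Adrb1, against 1.77% of all probes. The local background of that Adrb1 spot was flagged in replicate 2. A single probe, of Adora1, was seen in both RNAs on both arrays (21.5% of all probes), and 4 probes, all 3 of Ptger3 and 1 of Adra2a, in neither RNA on either array (43.2%). No member spot was saturated.

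**Figure D1:**
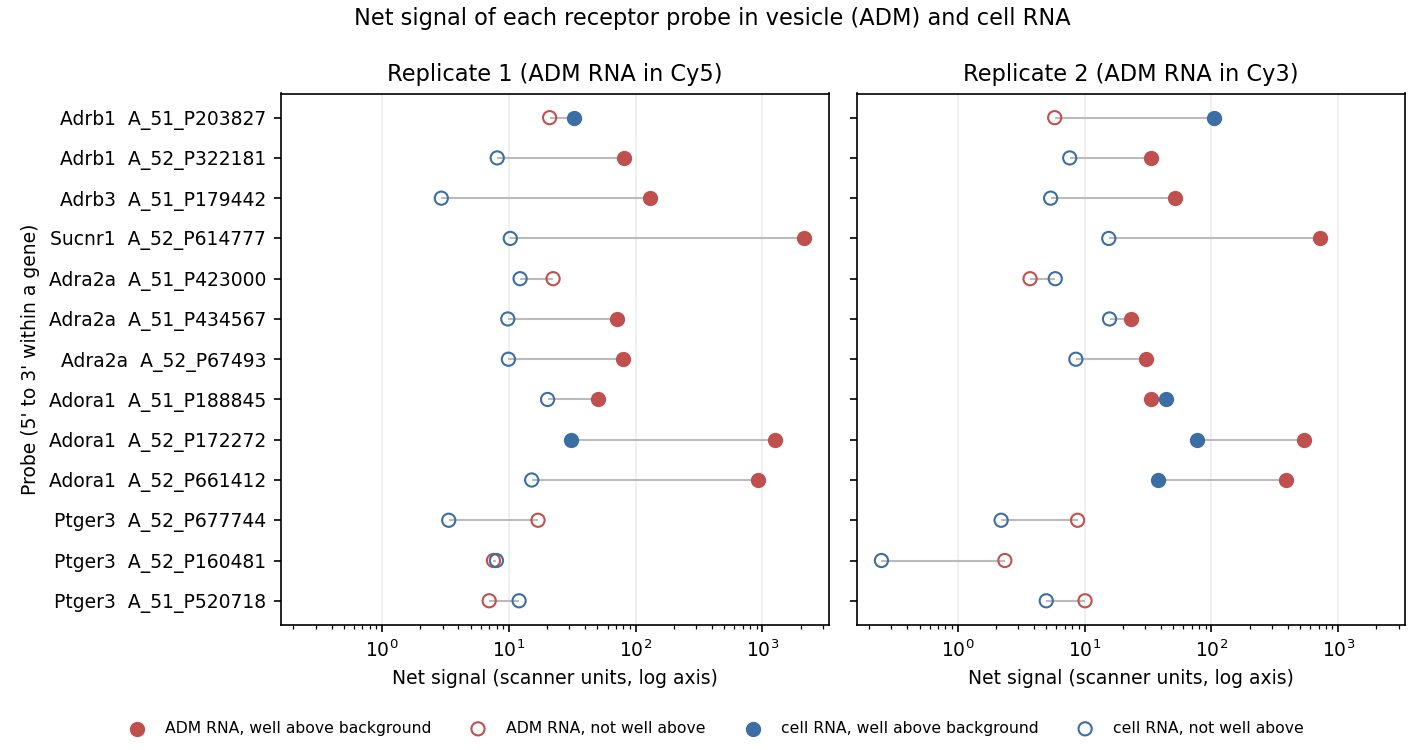
Net signal of each of the 13 receptor probes (rows, 5′ to 3′ within a gene) in vesicle (ADM) and cell RNA, in scanner units on a log axis, with replicate 1 on the left and replicate 2 on the right; filled points were well above background. Sucnr1 shows the widest gap, from 10.3 to 2126 units in replicate 1, and the upstream probe of Adrb1 is the only one seen in cell RNA and not in vesicle RNA. The replicate 2 spot of that Adrb1 probe had a flagged local background.

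The test across probes called 1 of the 8 receptor probes that passed the filter on dim spots, that of Sucnr1. Its cell signal was not above background on either array. The test compared the mean log2 ratio with 0 in limma over 18117 probes, with Benjamini-Hochberg adjustment at 0.05. Over all these probes 16.4% were called, 5.53% higher in vesicle RNA and 10.9% lower. Among the receptor probes 1 was higher, 0 lower and 7 did not pass, with 3 at an unadjusted p under 0.05 (35.8% of all probes). Their median log2 ratio was 0.10 beside 0.07 for all probes, and 4 were positive on both arrays, 3 negative and 1 of mixed sign (46.8%, 34.2% and 19.0% of all probes). A count of 1 called probe among 8 is near the background share.

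Sucnr1 had the highest loess ratio of the receptor probes; with plain background subtraction Adrb3 was higher (2.88 against 2.19). It encodes the receptor for succinate, a metabolite released by stressed and hypoxic tissue. Its probe A_52_P614777 lies at chr3:60243895-60243954 on the plus strand of mouse build mm7, the build of the array design. Vesicle RNA gave a net signal of 2126 in replicate 1 and 723 in replicate 2, and cell RNA 10.3 and 15.5. The cell values were not above background on either array, so the groups lay far apart and the cell level is uncertain. The log2 ratio was 0.74 in replicate 1 and 1.18 in replicate 2, with a mean of 0.96 ± 0.31 (SD, n = 2; limma adjusted p = 0.0347; 95% interval 0.52 to 1.40), higher in vesicle RNA on 2 of 2 arrays. The mean corresponds to a 1.94-fold difference among probes of like brightness, measured against a cell level that was not above background. Sucnr1 entered the test through vesicle RNA alone. The net ratios, 207 and 46.6, lay above the array medians of 38.8 and 7.64 in the same order. They come from the same spots and divide by cell values not above background, so they add no separate support. Under other processing the ratio stood 0.88 to 3.21 above the median of all probes and stayed called, with these exceptions. With outlying local backgrounds kept the log2 ratio was 0.15, or 0.14 above that median (limma adjusted p = 0.547). In that setting the fitted background noise rose from 0.851 to 485 scanner units in the vesicle channel of replicate 1. In a test restricted to probes seen in both RNAs Sucnr1 was not included, and 0 of 1 receptor probes passed there.

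**Figure D2:**
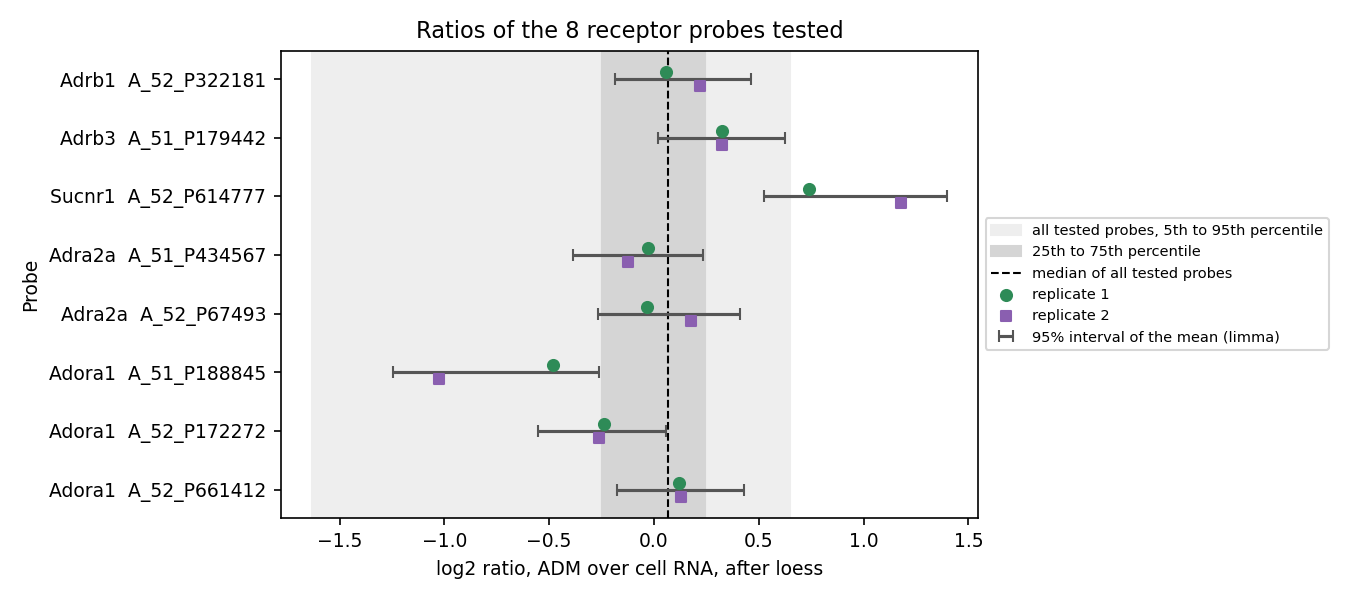
Log2 ratio of vesicle (ADM) over cell RNA after loess for the 8 receptor probes tested; points are the arrays, bars the 95% limma interval of the mean, and bands the spread of the means of all 18117 tested probes. Sucnr1, at 0.74 and 1.18, lies beyond the 95th percentile of 0.65, and the upstream probe of Adora1, at -0.48 and -1.03, is the lowest of the 8.

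The beta-adrenergic receptor genes gave weak signals. Adrb3 encodes the beta-3 receptor, the form typical of rodent fat cells. Its single probe, A_51_P179442, was designed to a transcript that the file describes as the beta-3b splice variant, and its coordinates, chr8:25982417-25982836 on the minus strand (mm7), span 420 bases of genome for an oligonucleotide of 60. The net signal was 130 and 51.7 in vesicle RNA and 2.94 and 5.40 in cell RNA, where it was not above background. All vesicle values exceeded all cell values, as is the rule on these arrays. Adrb3 entered the test through vesicle RNA alone, so its ratios below rest on a cell level that was not above background. The log2 ratio was 0.32 in both replicates, with a mean of 0.32 ± 0.00093 (SD, n = 2; limma adjusted p = 0.125), which missed the threshold; the 95% interval was 0.02 to 0.63. Its value depended on the processing more than that of Sucnr1. Adrb3 passed with an offset of 10 (0.96; limma adjusted p = 0.0270), with plain background subtraction (2.88; 0.0487) and with the scanner's own ratio (2.58; 0.0243), while with median centring in place of loess its 0.96 stood at -1.08 relative to the median of all probes.

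Adrb1, the beta-1 receptor gene, was read by a pair of probes that gave opposite answers. The upstream probe A_51_P203827, at chr19:56638805-56638864 (mm7, plus strand), belongs to the RefSeq transcript of Adrb1. Its net signal in cell RNA was 32.4 and 106, well above background, and in vesicle RNA 21.0 and 5.81, not above it. The downstream probe A_52_P322181, at chr19:56640778-56640837, was designed to a cDNA clone that the file describes as an inferred 3′ flanking region of the gene. There the vesicle RNA gave 80.5 and 33.2, above background, and the cell RNA 8.10 and 7.63, not above it. So on both arrays, with the dyes exchanged, the upstream probe was seen in cell RNA and the downstream probe in vesicle RNA, 1973 bases apart. For the upstream probe the replicate 2 spot had a flagged local background, so only replicate 1 shows this on unflagged spots.

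The loess ratios of the Adrb1 probes differed likewise. The upstream probe had a log2 ratio of -0.93 in replicate 1, a single value with no spread; its spot in replicate 2 was left out because the scanner flagged its local background. When only spots with a local background above 100 units were left out, a setting chosen after seeing the data, it gave -0.93 and -2.35 (mean -1.64; limma adjusted p = 0.0531). The downstream probe had 0.06 and 0.22, a mean of 0.14 ± 0.12 (SD, n = 2; limma adjusted p = 0.440). Its interval, -0.19 to 0.46, included 0, and it passed with the scanner's own ratio (2.25; 0.0222). At each probe 1 of the RNAs was not above background, so the size of this difference is uncertain.

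Among the receptors that hold cyclic AMP down, Adora1 gave the only probe seen in both RNAs on both arrays. It encodes the A1 receptor, through which adenosine restrains lipolysis. Its 3 probes lie on the minus strand of chromosome 1 (mm7), from the 5′ end A_51_P188845 at chr1:134092772-134092831, A_52_P172272 at chr1:134091467-134091526 and A_52_P661412 at chr1:134089189-134089248. The upstream probe gave a net signal of 50.4 and 33.2 in vesicle RNA and of 20.2 and 44.1 in cell RNA, and was not above background in cell RNA in replicate 1. The middle probe gave 1263 and 537 in vesicle RNA and 31.1 and 77.1 in cell RNA. The downstream probe gave 920 and 390 in vesicle RNA and 15.1 and 38.0 in cell RNA, the first of these not above background. Vesicle RNA was thus the brighter at the middle and downstream probes, while at the upstream probe the RNAs changed order between the arrays.

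The log2 ratios of Adora1 rose from the upstream to the downstream probe on both arrays. The upstream probe had -0.48 and -1.03, a mean of -0.75 ± 0.39 (SD, n = 2; limma adjusted p = 0.0636; 95% interval -1.25 to -0.26). It missed the threshold here, and passed with an offset of 10 (-1.55; limma adjusted p = 0.0180), plain subtraction (-2.34; 0.0460), scaling between arrays (-0.73; 0.0293), a trended eBayes (-0.75; 0.0498) and the scanner's ratio (-2.26; 0.0269). The middle probe had -0.25 ± 0.02 (limma adjusted p = 0.194) and the downstream one 0.13 ± 0.0077 (0.448), and neither value was distinguishable from 0. With median centring the middle probe turned to 2.75 and the downstream one went to 2.73, or 0.71 and 0.69 above the median of all probes, and both passed. Downstream minus upstream was 0.60 in replicate 1 and 1.16 in replicate 2, a mean of 0.88 that ran from 0.08 with outlying local backgrounds kept to 3.30 with the scanner's ratio and kept its sign in each setting run. Of 3909 genes with 2 or more tested probes, 6.09% had a downstream end higher by at least as much on both arrays. Genes whose upstream end was higher by as much are not in that share. The downstream end was the higher on both arrays in 41.9% of the 3909 genes and the upstream end in 31.1%, with a median difference of 0.04.

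**Figure D3:**
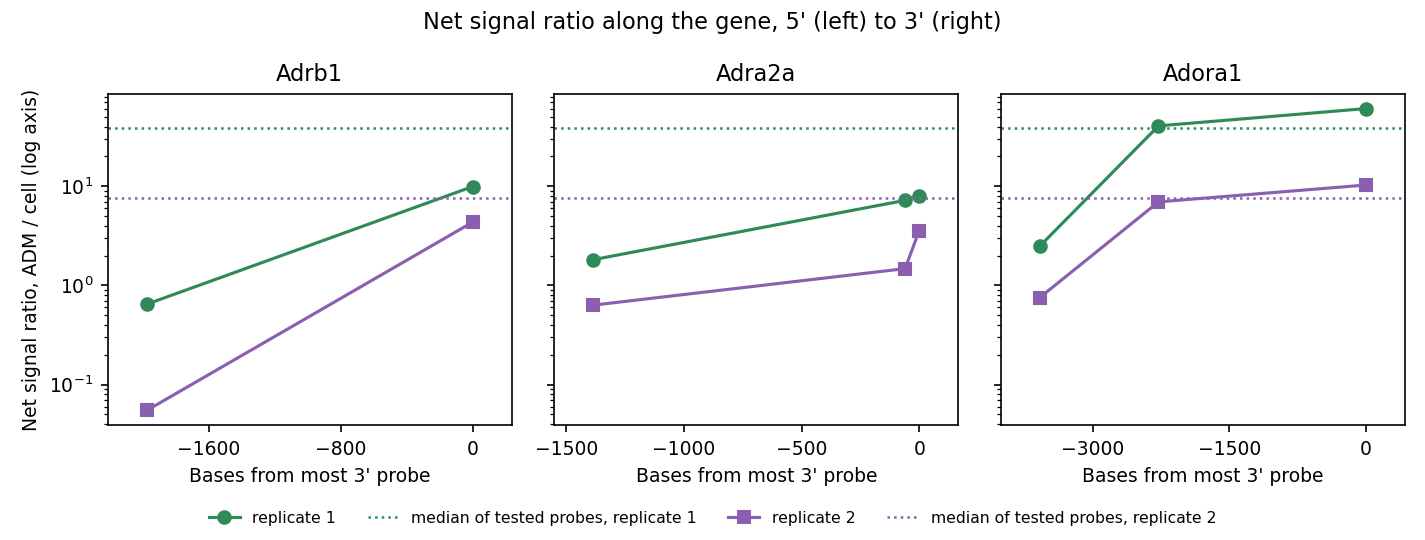
Net signal ratio of vesicle (ADM) over cell RNA (log axis) against the distance in bases from the most 3′ probe of Adrb1, Adra2a and Adora1; dotted lines are the medians of all tested probes, 38.8 in replicate 1 and 7.64 in replicate 2. For Adrb1 and Adora1 the most upstream probe has the lowest ratio on both arrays. The replicate 2 spot of the upstream Adrb1 probe had a flagged local background. Many of these ratios rest on a signal not above background, as do both signals of the upstream Adra2a probe and of the 3 Ptger3 probes. The Ptger3 probes are not plotted, and their most downstream probe had a ratio of 0.581 in replicate 1 and 2.02 in replicate 2.

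Adra2a, the alpha-2A receptor gene, was dim and close to the median of all probes. Its neighbouring downstream probes, A_51_P434567 at chr19:53961681-53961740 and A_52_P67493 at chr19:53961741-53961800 (mm7, plus strand), adjoin each other without overlap. The first gave net signals of 70.7 and 23.2 in vesicle RNA and 9.81 and 15.7 in cell RNA, and the second 79.8 and 30.4 against 9.92 and 8.53. Both were above background in vesicle RNA alone, and the adjoining probes read alike. The log2 ratios were -0.08 ± 0.07 (SD, n = 2; limma adjusted p = 0.645) and 0.07 ± 0.15 (limma adjusted p = 0.682), with intervals of -0.39 to 0.24 and -0.26 to 0.41. Both passed with the scanner's ratio (1.53; limma adjusted p = 0.0350, and 2.31; 0.0215), and with median centring they stood at -1.78 and -1.59 relative to the median of all probes. The upstream probe A_51_P423000, at chr19:53960356-53960415, gave 22.3 and 3.71 in vesicle RNA and 12.3 and 5.87 in cell RNA, and was above background in neither.

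Ptger3 was not detectable at the signal of these arrays. It encodes EP3, the receptor through which prostaglandin E2 restrains cyclic AMP in fat cells. Its probes lie on the plus strand of chromosome 3 (mm7): A_52_P677744 spans 37179 bases of genome at chr3:157476001-157513179, A_52_P160481 lies at chr3:157515303-157515362 and A_51_P520718 at chr3:157552710-157552769. Their net signals ran from 2.35 to 17.0 in vesicle RNA and from 0.25 to 12.0 in cell RNA. None was above background in either RNA, so no direction can be given, and the absence of the transcript is not shown.

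**Figure D4:**
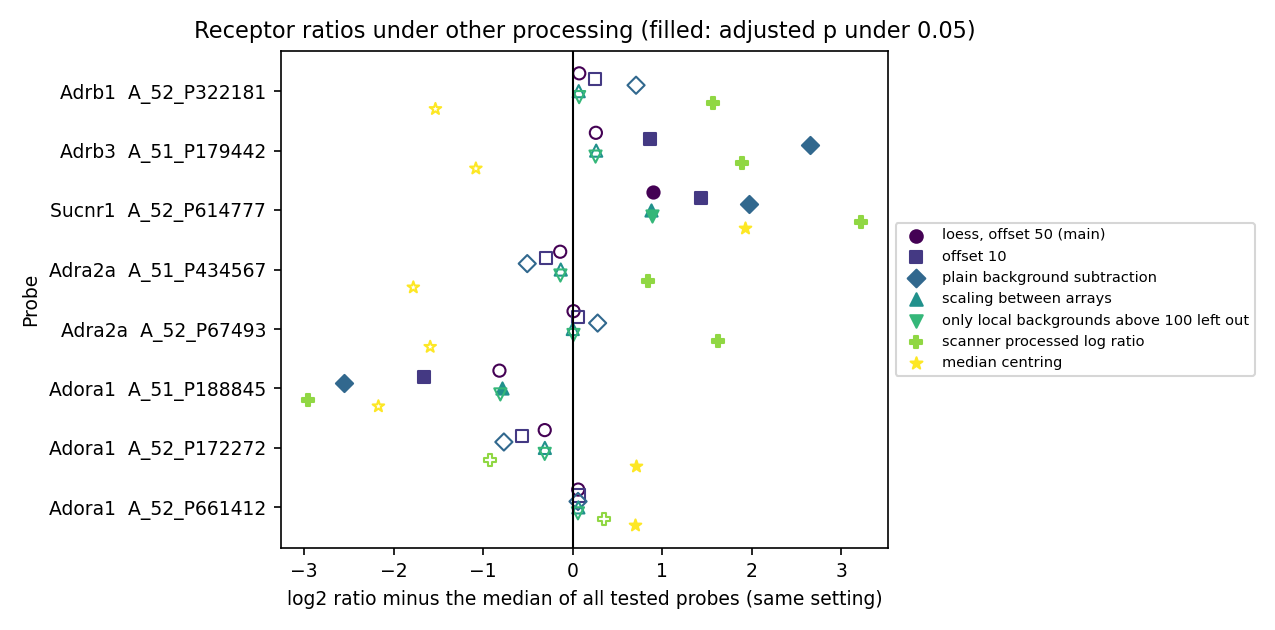
Log2 ratio of the 8 tested receptor probes minus the median of all tested probes under the same processing, with 1 symbol for each of 7 processing settings; filled symbols passed an adjusted p of 0.05 in limma. Sucnr1 lies to the right of 0 and the upstream Adora1 probe to the left under all 7, while Adrb3 and the downstream Adrb1 probe, to the right of 0 with loess, lie to the left with median centring.

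The rest of the pathway, from receptors to lipases, was read at gene level with the brightest probe of each gene, where 5.79% of 13186 genes were called higher and 12.0% lower. Over 9 lists with 133 genes, 132 of them on the array, 70 genes were tested, of which 8 were higher, 11 lower and 51 did not pass; the median log2 ratio was 0.11 beside 0.04 for all genes. With median centring the medians were 3.07 and 2.34.

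Other receptors that hold cyclic AMP down included 2 of 5 tested genes that were higher and 0 that were lower. Hcar2, the receptor for hydroxybutyrate and niacin, gave net signals of 3687 and 1375 in vesicle RNA and 17.5 and 15.0 in cell RNA. The Hcar2 probe was not well above background in cell RNA on both arrays, so it entered the test through vesicle RNA alone and the cell level is uncertain. The log2 ratio of Hcar2 was 1.36 ± 0.65 (SD, n = 2; limma adjusted p = 0.0490). Ffar2, a receptor for short-chain fatty acids, had 0.81 ± 0.12 (0.0324), and the lactate receptor Hcar1 -0.47 ± 0.12 (0.0739), which did not pass. Their values lay on either side of the 0.96 of Sucnr1 for the called genes, Hcar2 and Ffar2. Hcar2 and Sucnr1 both entered the test through vesicle RNA alone, so the call of Hcar2 adds no separate support. Hcar2 and Ffar2 stood at 4.72 and 5.01 with median centring, above the 2.34 of all genes, and Hcar1 at 1.65, below it.

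Receptors that raise cyclic AMP had 0 higher and 2 lower of 6 tested. Adora2a, a gene for an adenosine receptor, stood at -2.64 ± 0.83 (SD, n = 2; limma adjusted p = 0.0266) and the corticotropin receptor gene Mc2r at -1.22 ± 0.27 (0.0260). Both were below the median of all genes with median centring too, at 0.0015 and 1.69. Net signals of Adora2a were 347 and 131 in vesicle RNA and 86.6 and 289 in cell RNA, so the RNAs changed order between the arrays before loess. Of 6 tested receptors coupled to Gq or acting otherwise, 3 were higher, among them the prostaglandin F receptor gene Ptgfr (1.18 ± 0.28; limma adjusted p = 0.0275) and the endothelin receptor gene Ednra (0.88 ± 0.20; 0.0336), and 0 lower. Other tested probes of Ptgfr and Ednra gave 0.17 and 0.09.

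Downstream of the receptors, called genes lay on both sides. Of 12 G protein subunit genes, Gnas, which encodes the alpha subunit of Gs, was higher at 0.75 ± 0.05 (SD, n = 2; limma adjusted p = 0.0332) and Gng5, a gamma subunit, lower at -1.14 ± 0.52 (0.0493). With median centring Gng5 stood at 3.86, above the 2.34 of all genes, and the scanner's ratio was -0.57. Gnai2, an alpha subunit of Gi, had 0.55 ± 0.24 (limma adjusted p = 0.0759). Of 3 adenylyl cyclase genes, Adcy6 (-5.19 ± 1.05; limma adjusted p = 0.0143) and Adcy1 (-1.27 ± 0.50; 0.0396) were lower. Adcy6 gave net signals of 7157 and 2678 in vesicle RNA and 3282 and 5777 in cell RNA, so the RNAs changed order between the arrays before loess. Adcy1 was above background in cell RNA alone, through which it entered the test, with -0.92 and -1.62 on the arrays. Of 6 phosphodiesterase genes, which encode the enzymes that break cyclic AMP down, 0 passed in either direction, and Pde3b, the form that insulin activates in fat cells, had 0.05 ± 0.35 (0.856).

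The kinase and desensitisation genes followed the same mixed course. Of 10 genes of protein kinase A and its anchors, Akap1, an anchor at mitochondria, was higher (0.70 ± 0.15 SD, n = 2; limma adjusted p = 0.0424) and 0 were lower, with the regulatory subunit gene Prkar2b at 0.09 ± 0.46 (0.763); Prkaca, a catalytic subunit gene, had a flag in replicate 2 and gave 0.0017 in replicate 1. Of 14 genes of receptor kinases, arrestins and regulators of G protein signalling, Rgs2 was higher (1.24 ± 0.03; 0.0175) and 4 were lower, led by Rgs3 (-4.42 ± 0.58; 0.00738) and the arrestin gene Arrb1 (-1.80 ± 0.08; 0.00995). Rgs3 changed order between the arrays before loess, with net signals of 440 and 187 in vesicle RNA and 284 and 961 in cell RNA. Another probe of Rgs2 gave 0.18, of Rgs3 0.19, of Arrb1 -0.15 and of Akap1 -0.29, so these values belong to the brightest probes. No Akap1 probe was well above background in cell RNA on both arrays, so Akap1 entered the test through vesicle RNA alone. With median centring Arrb1 stood at 2.33, beside 2.34 for all genes, and Rgs3 at -1.08. With the scanner's ratio Arrb1 stood at -2.05 and Rgs3 at -5.60. The lower value of Arrb1 relative to all genes thus depended on the processing. Arrb2 (0.16; 0.362) and the receptor kinase gene Grk2 (0.30; 0.159) did not pass. Of 8 lipolysis effector genes 0 were higher and 2 lower, Plin1 (-1.33 ± 0.47; 0.0345) and the triglyceride lipase gene Pnpla2 (-1.17 ± 0.47; 0.0424). Both were above the median of all genes with median centring (4.19 and 4.16). With the scanner's ratio they stood at -0.02 and -0.05, beside a median of 0.51 for all genes. The lower call of Plin1 and Pnpla2 thus depended on the processing, and another Pnpla2 probe gave 0.41. Lipe, hormone-sensitive lipase, had 0.19 ± 0.08 (0.294), and another Lipe probe 0.89 (limma adjusted p over all probes 0.0410).

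**Figure D5:**
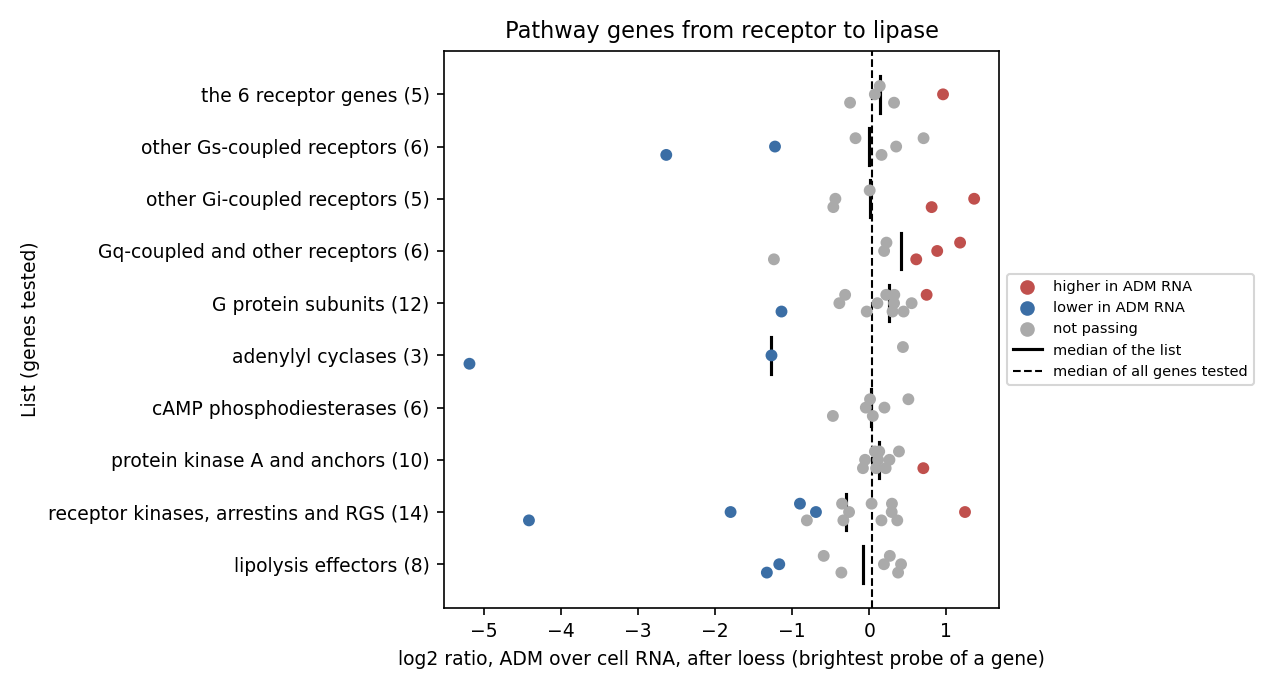
Log2 ratio of vesicle (ADM) over cell RNA after loess for each tested gene of the 6 receptor genes and of the 9 pathway lists, by its brightest probe; bars are list medians and the dashed line is the median of all 13186 genes, 0.04. Called genes lie on both sides, from Adcy6 at -5.19 to Hcar2 at 1.36.

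The genes whose probes came nearest to a receptor probe over the 4 log2 signals (each RNA on each array, before loess) were found by Euclidean distance. For Sucnr1 they were Aspn, Tspan3 and App, at distances of 0.15, 0.18 and 0.19 log2 units. For Adrb3 they were Grb7, Aqp1 and Stag2 (0.05, 0.05 and 0.08), and for the downstream Adrb1 probe Otud7b, Top3a and Alkbh8 (0.02, 0.04 and 0.05). The Adra2a probes lay nearest Dock4, Cebpz and Krtcap3 (0.05, 0.06 and 0.08) and Mtrr, Phldb2 and Dpcd (0.03, 0.04 and 0.05). The upstream Adora1 probe lay nearest Carm1, Slc6a17 and Nlrx1 (0.10, 0.13 and 0.13), the middle one nearest Nfkb2, Pop1 and Phtf1 (0.10, 0.10 and 0.12), and the downstream one nearest Ppp2r3c, Ppp1r8 and Vars2 (0.05 each). Sucnr1 thus had the most distant neighbours of these.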

How the data were processed

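Two-colour arrays of vesicle and cell RNA were used, 1 for each of 2 replicates, from 250 ng of total RNA per labelling, per the labels' protocols. The authors deposited spot and local background intensity values from Feature Extraction 10.5.1.1, per the file headers, without normalization. They also deposited the log10 ratio of Cy5 over Cy3, background-subtracted and dye-normalized by that software, per the file headers; the series table holds the same ratio with its sign turned in replicate 2 (medians 0, direction from cells to vesicles by the dye labels, equal within 1e-04). Scanner flags (other values of 0 or 1) were used as deposited. No filter on a total is possible, since arrays give no depth.

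Background was corrected with normexp (offset 50) in limma 3.58.1 and R 4.3.3, loess within each array gave control spots a weight of 0, and replicate 2 was turned by its dyes. Spots with an outlier flag, for the spot or its local background, were left out, which removed 2144 and 1545 gene spots for the local background and left 3198 probes lacking a value on at least 1 array. That step was adopted in an earlier analysis of these data after its effect had been seen. A probe was seen where at least 50% of its spots were well above background; each member probe had 1 spot. Probes seen in 1 RNA on both arrays were tested against 0 with lmFit and eBayes (1 residual and 2.91 prior degrees of freedom), adjusted by Benjamini-Hochberg over all probes. The offset pulls dim ratios towards 0. Gene names followed RefSeq accessions (GRCm38.p6 table; 22951 of 41174 probes) and otherwise the file. The code was tested on simulated data. Exons and UTRs of mm7 were not used here.

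All probes of the 6 genes are named, with, per list, the 2 highest and 2 lowest called genes and preset anchor genes, and, per receptor probe seen in 1 RNA on both arrays, the 3 nearest genes. A single anchor gene is not reported here. The members and lists were chosen with earlier results of these data known. Alternatives were median centring, the scanner's ratio, other background handling, offsets, filters, scaling and variance moderation.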

Additional observations from a re-analysis of the deposited data

How the results depend on the processing

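The number of receptor probes past the threshold in limma, 1 of 8, was 3 with median centring and 6 with the scanner's ratio. It was 3 with an offset of 10, 3 with plain subtraction, 2 with scaling between arrays and 2 with a trended eBayes. When only probes seen in both RNAs were tested it was 0 of 1. Higher and lower probes were 3 and 0 with median centring and 5 and 1 with the scanner's ratio. They were 2 and 1 with an offset of 10 and with plain subtraction, and 1 and 1 with scaling and with the trended eBayes. With outlying local backgrounds kept it was 0 of 9, as limma then called 0 of 19807 probes (677 at an unadjusted p under 0.05) and 0 genes of the lists; the lowest net signal was then -65502 scanner units, against -4.16, in the cell channel of replicate 1. With only local backgrounds above 100 units left out, chosen after seeing the data, 3845 of 19803 probes passed, and 1 of 9 receptor probes. Of all 18117 probes tested 2972 passed, 33.7% of them higher. Of the same number 11038 passed with median centring (97.6% higher), 8372 with the scanner's ratio (69.3%) and 4930 with an offset of 10 (37.9%). Scaling between arrays gave 4676 (38.1%), a trended eBayes 4166 (41.1%) and plain subtraction 1965 (23.5%). Among probes seen in both RNAs 2692 of 7920 passed (36.0% higher). The receptor counts above stand beside these totals and were not tested against them. The genes called over the lists numbered 19, against 54 with median centring and 33 with the scanner's ratio. Median centring set the median of all probes at 2.04, and its prior degrees of freedom were infinite, so its p-values rest on 1 variance shared by all probes. The Adra2a probe A_51_P434567 changed sign to 0.26 with median centring, but stood at -1.78 relative to the median of all probes there. With the scanner's ratio it was 1.53, or 0.84 above that median. The middle Adora1 probe changed sign to 2.75 with median centring, or 0.71 above the median. The cause of these differences between settings was not tested. Requiring the flag on every spot left detection of the receptor probes as it was. Without replicate 1 and without replicate 2, Sucnr1 stood at 1.18 and 0.74. The ratios within each array, tested throughout, already pair the vesicle and cell RNA, so no further block was fitted.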
